A study of Mus musculus with 6 samples.

Results

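The 5p strands of the miR-17 family were followed in hybrids of a miRNA and a piece of mRNA captured on AGO2. The cells were P19, an embryonic carcinoma line of the mouse. The members were the table rows named mmu-miR-17-5p, mmu-miR-20a-5p, mmu-miR-20b-5p, mmu-miR-93-5p, mmu-miR-106a-5p or mmu-miR-106b-5p (mmu stands for mouse and is left out below), and no other miRNA of the table has their seed. All 6 had hybrids, and they made up 2074 of the 15680 hybrid reads of the series, on 710 of its 3200 target genes. Libraries came from 3 WT cultures, Dicer (+/+), and 3 HM cultures, Dicer (HM/-), in which one allele carries a hotspot mutation of the RNase IIIb domain and the other a frameshift that ends its function. HM cells are a clonal derivative of P19, so that clone and genotype cannot be told apart. In CLASH, the method used, cells were irradiated with UV light, AGO2 was precipitated, and the miRNA and the mRNA fragment in the same complex were joined by a ligase and read as one sequence. Libraries held 1621 to 2331 hybrid reads in WT and 1661 to 5341 in HM, and 98.9% of the distinct family hybrids had 1 read, so counting error is large for any single gene.

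A miRNA precursor is a hairpin with a 5p strand and a 3p strand. Dicer cuts it with 2 domains, and the IIIb domain makes the cut that frees the 3′ end of the 5p strand from the loop. The miR-17 family arises from 3 gene clusters and is known as a driver of proliferation and as a repressor of cell cycle inhibitors and pro-apoptotic genes. A miRNA finds its targets mainly through its seed, bases 2 to 8, which pairs with a complementary stretch in the 3′ UTR, often followed by an A opposite base 1.

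The mature sequences are shown because all members share one seed (capitals) and differ elsewhere. They are RefSeq entries on GRCm38.p6.
miR-17-5p: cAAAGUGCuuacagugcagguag
miR-20a-5p: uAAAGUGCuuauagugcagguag
miR-20b-5p: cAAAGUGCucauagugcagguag
miR-93-5p: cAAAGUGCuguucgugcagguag
miR-106a-5p: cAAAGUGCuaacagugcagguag
miR-106b-5p: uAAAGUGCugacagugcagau
Bases differ between members at positions 1, 10, 11, 12, 13 and 20, counted from the 5′ end. miR-17-5p and miR-106a-5p differ at 1 of 23 bases, and miR-93-5p and miR-106b-5p at 5 of 21. miR-17-5p (chr14:115043684-115043706) and miR-20a-5p (chr14:115044183-115044205) lie on the + strand of one cluster. miR-20b-5p (chrX:52742159-52742181) and miR-106a-5p (chrX:52742541-52742563) lie on the - strand of another. miR-93-5p (chr5:138165574-138165596) and miR-106b-5p (chr5:138165787-138165807) lie on the - strand of the last.

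P19 cells also express 3p strands of the miR-290 and miR-302 clusters whose seeds overlap that of the family by 6 bases, shifted by 1 position. The seed of miR-302c-3p, counted with them, lies 1 base further on and overlaps by fewer bases. The 9 strands counted leave out miR-291b-3p, whose seed has the same overlap of 6 bases. These 3p strands supplied from 20.3% to 20.9% of the hybrid reads in WT libraries and from 38.8% to 40.3% in HM libraries. The shares are of all hybrids, and 5p reads numbered 1005, 1233 and 911 in WT libraries against 70, 194 and 107 in HM libraries. The shares therefore do not show a rise of these strands among 3p hybrids. All 3p reads together numbered 916, 1091 and 701 (WT libraries 1 to 3) or 1585, 5113 and 2670 (HM libraries 1 to 3). Of them these strands supplied 1210 over the WT and 3843 over the HM cultures. As a part of 3p reads alone they did not rise, and every HM library lay somewhat below every WT library. This difference was not tested. One example of each cluster is shown with its seed in capitals.
miR-294-3p: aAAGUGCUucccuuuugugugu
miR-302b-3p: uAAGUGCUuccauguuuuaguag

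The family supplied about 1 in 3 hybrids in WT cells and under 1 in 50 in HM cells. Its share of all hybrid reads was 31.2%, 32.5% and 34.2% in WT libraries 1, 2 and 3, against 1.87%, 1.48% and 1.79% in the HM libraries. The means were 32.6% ± 1.52 (SD, n = 3) and 1.71% ± 0.205 (SD, n = 3), and the groups did not overlap (two-sided exact permutation test, p = 0.1, the smallest that 3 against 3 libraries can give).

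Within the 5p-miRNAs the picture depended on a single other miRNA. The family made up 59.9%, 61.4% and 60.9% of 5p reads in WT libraries against 44.3%, 40.7% and 46.7% in HM libraries, lower in HM (exact permutation p = 0.1). miR-466i-5p was not called lower, with 56 reads over the WT and 173 over the HM libraries (edgeR adjusted p = 0.554). Without it the family made up 60.8%, 61.7% and 63.4% of 5p reads in WT against 86.1%, 78.2% and 82.0% in HM libraries, a difference of the opposite direction (exact permutation p = 0.1).

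All members fell, but by very different amounts. Levels are given as reads per 1000 3p hybrid reads of the library, because 3p strands made up nearly all HM hybrids. miR-20b-5p had the most WT hybrid reads of the 5p-miRNAs. It stood at 193, 207 and 272 in WT libraries and at 10.7, 10.8 and 12.7 in HM libraries. miR-20a-5p, sixth among 5p-miRNAs in WT hybrid reads, stood at 45.9, 50.4 and 61.3 in WT and at 6.31, 2.93 and 4.49 in HM libraries. These were the members with the largest part kept in HM, although every HM library lay far below every WT library.

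miR-93-5p, second among 5p-miRNAs in WT hybrid reads, stood at 153, 170 and 174 and fell to 0.631, 0.391 and 0. miR-106a-5p, the third, stood at 136, 130 and 154 and fell to 1.89, 1.17 and 1.5. miR-17-5p stood at 79.7, 82.5 and 88.4, and its HM libraries held 0, 1 and 0 reads. miR-106b-5p stood at 49.1, 53.2 and 41.4 and had no read in any HM library, where 0 reads allow up to 3.

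**Figure D1:**
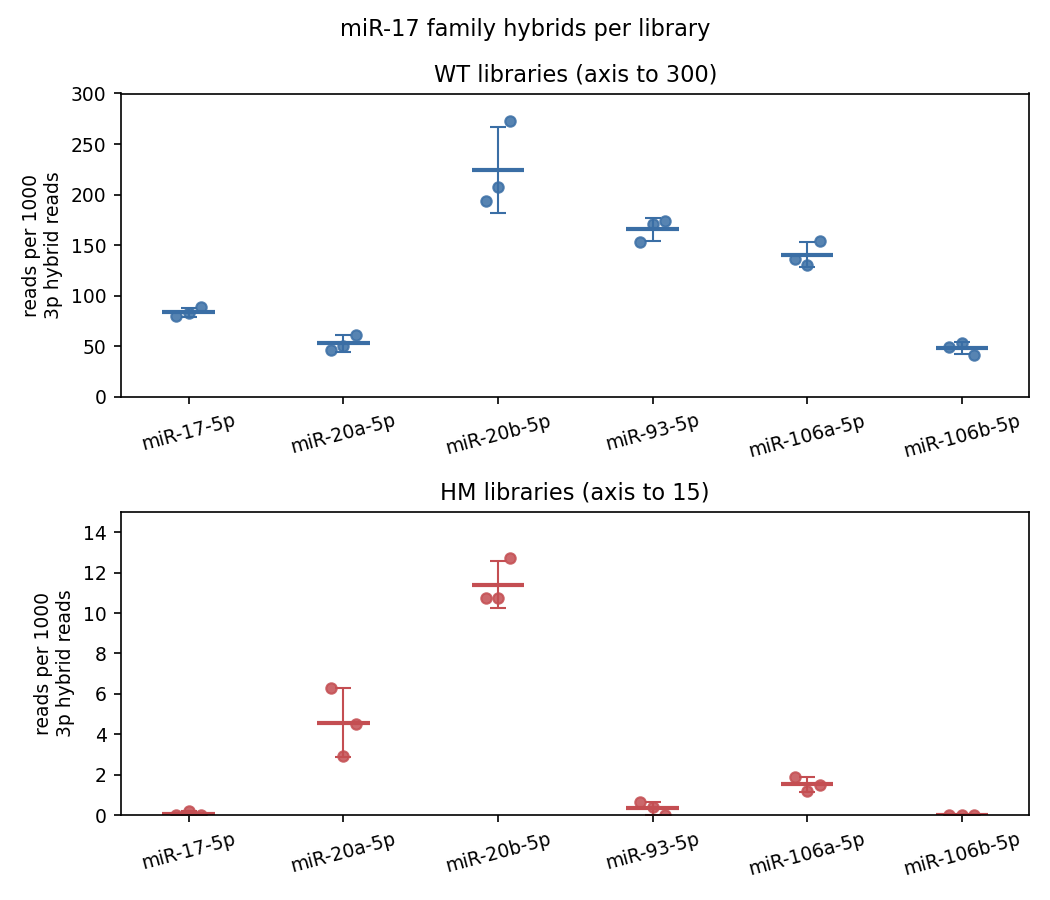
Reads of each family member per 1000 3p hybrid reads, one point per library, with the mean (thick bar) and SD (error bar) of 3 libraries; the upper panel shows WT and the lower panel HM on an axis of its own. miR-20b-5p and miR-20a-5p lead in HM, at means of 11.4 and 4.58, while miR-17-5p, miR-93-5p and miR-106b-5p lie below 1.

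Pooled over libraries, the rate of miR-20a-5p per 3p hybrid was 13.1-fold lower in HM (95% exact interval of counting error 9.06 to 19.4) and that of miR-20b-5p 19.4-fold lower (15.7 to 24.1). The rate of miR-106a-5p was 99.8-fold lower (57.7 to 189). Hybrids of miR-93-5p numbered 448 in WT and 3 in HM, a ratio of 517 (176 to 2514), and miR-17-5p had 225 and 1, a ratio of 778 whose interval starts at 138. miR-106b-5p had 132 reads in WT and was at least 152-fold lower, computed against 3 reads over the 3 HM libraries. The intervals of miR-20a-5p and miR-20b-5p lay below those of the other members with a ratio.

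In the edgeR quasi-likelihood test over 94 miRNAs, of which 43.6% were called lower, all 6 members were called lower, with log2 fold changes of -3.68 (SE 0.27) for miR-20a-5p, -4.28 (SE 0.16) for miR-20b-5p, -6.58 (SE 0.25) for miR-106a-5p, -8.76 (SE 0.30) for miR-93-5p, -8.95 (SE 0.41) for miR-17-5p and -9.61 (SE 0.56) for miR-106b-5p. The largest adjusted p among them was 2.01e-33. Over all 94 miRNAs the median was -0.72 on this scale, and it was 0.33 when libraries were scaled to all hybrids and -0.28 with TMM. The direction of every member was the same under each of these scalings. The median of the 6 members was -7.67, and that of the 28 other 5p-miRNAs tested, of which 26 were called lower, was -6.54. These include miR-411-5p and miR-673-5p of a cluster on chromosome 12 that, per the study's methods, is silent in the HM clone at transcription. Without them 24 of 26 were called lower, with the same median of -6.54. Ordered from the smallest fall among the 34 tested 5p-miRNAs, miR-20a-5p and miR-20b-5p were in places 4 and 8, and miR-93-5p, miR-17-5p and miR-106b-5p in places 29, 31 and 33. miR-93-5p, miR-17-5p and miR-106b-5p had 3, 1 and 0 HM reads, so the size and order of their falls are poorly resolved. A 5p-miRNA with few WT reads cannot show a fall as large. By these estimates the family spanned most of the range of 5p-miRNAs.

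Cluster neighbours differed in the part kept on chromosomes 14 and X. On chromosome 14 the HM rate was 7.64% of the WT rate for miR-20a-5p and 0.129% for miR-17-5p. On the X chromosome it was 5.16% for miR-20b-5p and 1.00% for miR-106a-5p. On chromosome 5 it was 0.194% for miR-93-5p and 0 for miR-106b-5p, whose bound of at least 152-fold lower includes the ratio of miR-93-5p, so that these neighbours cannot be told apart at this depth.

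The make-up of the family changed accordingly. miR-20b-5p supplied 29.4%, 29.9% and 34.4% of the family's reads in WT libraries against 54.8%, 69.6% and 68.0% in HM libraries, a rise in the mean of 32.9 percentage points. miR-20a-5p supplied 6.98%, 7.27% and 7.75% in WT and 32.3%, 19.0% and 24.0% in HM. The means of the other members fell, from 23.3% ± 1.29 to 1.92% ± 1.70 for miR-93-5p, from 19.7% ± 1.02 to 8.42% ± 1.10 for miR-106a-5p, from 11.7% ± 0.497 to 0.422% ± 0.731 for miR-17-5p and from 6.79% ± 1.36 to 0 for miR-106b-5p (SD, n = 3 libraries). For each of the 6 shares the genotypes did not overlap (exact permutation p = 0.1 for each, also after Benjamini-Hochberg adjustment over the 6). Shares of one total are not independent of each other, and HM shares rest on 31, 79 and 50 reads.

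**Figure D2:**
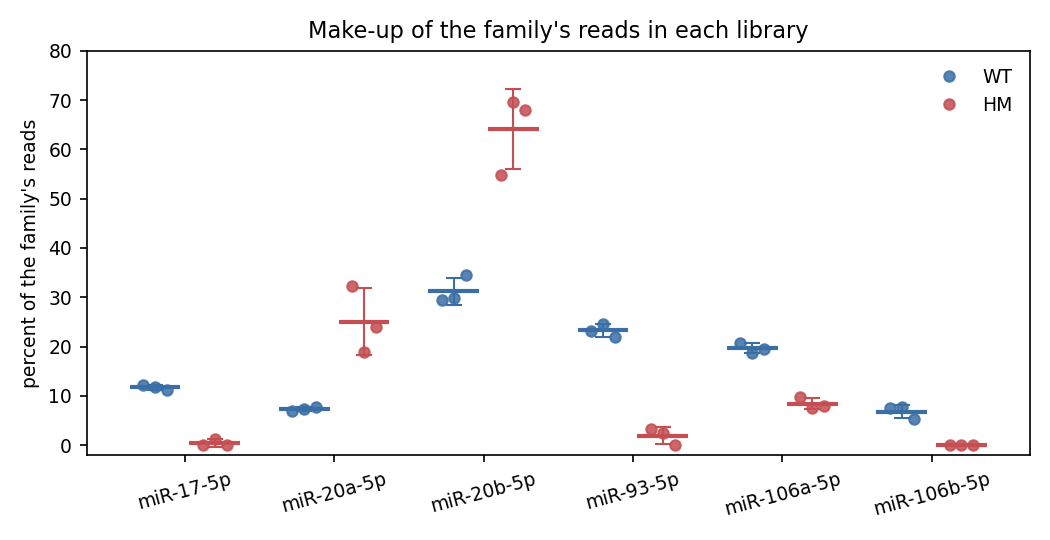
Percent of the family's reads from each member, one point per library, with the mean and SD of 3 WT (blue) and 3 HM (red) libraries. miR-20b-5p and miR-20a-5p are higher in every HM library than in any WT library, and the other members are lower.

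A further feature of the kept reads was found by looking at the joint between the miRNA and the target fragment, and was chosen after its values were seen. Among hybrids with the complete mature miR-20b-5p sequence, the next base was T in 36 of 96, 40 of 128 and 46 of 111 reads in WT libraries, and in 11 of 11, 28 of 32 and 14 of 20 reads in HM libraries. The means were 36.7% ± 5.14 and 85.8% ± 15.1 (SD, n = 3), and the genotypes did not overlap (exact permutation p = 0.1). For miR-20a-5p it was T in 6 of 25, 11 of 28 and 10 of 22 reads in WT against 6 of 8, 7 of 10 and 8 of 9 reads in the HM libraries, with means of 36.2% ± 11.0 and 78.0% ± 9.79 (exact permutation p = 0.1). After complete 3p-miRNAs the means were 33.8% ± 1.56 in WT and 34.5% ± 0.851 in HM, with overlapping libraries (exact permutation p = 0.6).

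**Figure D3:**
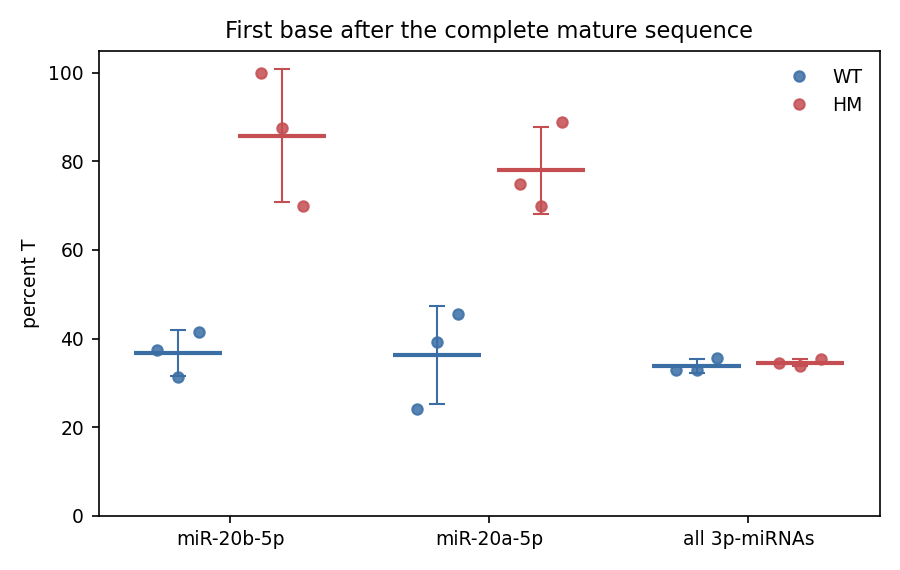
Percent of reads with T as the first base after the complete mature sequence, one point per library, with the mean and SD of 3 WT (blue) and 3 HM (red) libraries. HM libraries lie at 70% or above for miR-20b-5p and miR-20a-5p, WT libraries at 45.5% or below, and all libraries between 32.8% and 35.6% for 3p-miRNAs.

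In the hairpins of both miRNAs the mature 5p strand is followed by U, which is read as T. The same holds for miR-17-5p and miR-93-5p, with 1 complete HM read each, followed by T for miR-93-5p only. The hairpin of miR-106b-5p goes on with A. The stretches below start at the first base of the mature 5p strand and end 5 bases after it, with the first base past it in capitals.
miR-20b hairpin: caaagugcucauagugcagguagUuuuu
miR-20a hairpin: uaaagugcuuauagugcagguagUgugu
miR-106a hairpin: caaagugcuaacagugcagguagCuuuu
Both bases that follow in the hairpin also followed in 27 of 63 complete miR-20b-5p reads in HM against 43 of 335 in WT, and in 12 of 27 against 8 of 75 for miR-20a-5p. After complete miR-106a-5p, whose hairpin goes on with C, HM held 8 reads, of which 2 went on with T and 2 with C, too few for a comparison. Other 5p-miRNAs, without miR-466i-5p, had 3, 13 and 4 complete reads in HM libraries, with T after 1, 8 and 1 of them. In WT the next base was T in 40.2% of complete miR-17-5p, 41.1% of miR-93-5p, 43.5% of miR-106a-5p and 19.8% of miR-106b-5p reads.

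The base could be set against the target itself where another fragment of the same gene covered it. For miR-20b-5p in HM, 20 of the reads with T had such a fragment, and in 11 of them every such fragment had another base at that place. In WT this was so for 7 of 57. For miR-20a-5p it was 4 of 6 in HM and 3 of 13 in WT. An example is the most bound target. The same 15 bases of Fjx1 were preceded by C in 10 of 11 reads after a complete miR-93-5p in WT, by T in 2 of 6 after miR-20b-5p in WT and by T in 2 of 3 after miR-20b-5p in HM. Capitals mark the base after the miRNA.
Fjx1 after miR-93-5p in WT: Cagtttcatgcactttactt
Fjx1 after miR-20b-5p in HM: Tagtttcatgcactttactt
The table assigns this base to the target fragment in every such read.

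In WT cells the family had hybrids on 670 genes, in 1192 pairs of a member and a gene. Of these genes, 346 had a single family read, 243 had 2 to 4, 50 had 5 to 9 and 31 had 10 or more. The last group held 32.1% of the family's WT reads. All 346 genes with a single read had by construction 1 member, whereas 12 of the 31 genes with 10 or more reads were bound by all 6 members and 13 by 5 members.

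Of the 670 genes, 386 (57.6%) were seen with one member alone, 346 of them with a single read, and 284 with more than one member. Counted per member, most targets were shared. The table had been filtered to predicted pairs of a miRNA and a gene, and the members have one seed. The part of this filter in the sharing was not tested. miR-20b-5p had 336 genes in WT, of which 59.5% were also bound by another member, and miR-93-5p had 256, of which 65.2% were shared. For miR-106a-5p it was 71.2% of 222 genes, for miR-17-5p 73.6% of 163, for miR-106b-5p 70.4% of 108 and for miR-20a-5p 79.4% of 107. The share was thus lowest for the members with the most reads. Genes seen with one member alone nearly always rested on 1 read, in 117 of 136 genes for miR-20b-5p, 77 of 89 for miR-93-5p, 59 of 64 for miR-106a-5p, 42 of 43 for miR-17-5p, 29 of 32 for miR-106b-5p and 22 of 22 for miR-20a-5p. The most reads on a gene with one member alone were 5, on Bet1l with miR-20b-5p.

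Members also met at the same places. Of the family's 1914 WT reads, 1114 (58.2%) shared a run of 18 bases on the same gene with a read of another member, from 47.0% for miR-106b-5p to 64.3% for miR-20a-5p. The part of the filter in these shares was not tested either. The same run was shared with an overlapping-seed 3p strand in WT libraries by 113 reads (5.90%) on 35 genes, and in HM libraries by 209 reads (10.9%) on 84 genes. HM libraries held over 3 times as many reads of those strands, 3843 against 1210, so these percentages are not comparable between genotypes.

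Fragments carried the seed match. The 6-base match to bases 2 to 7 was in 83.6%, 81.9% and 74.9% of miR-20b-5p reads and in 87.9%, 83.9% and 85.2% of miR-93-5p reads in WT libraries 1 to 3. The other members averaged from 71.3% ± 8.17 for miR-106a-5p to 78.9% ± 6.79 for miR-106b-5p (SD, n = 3). With the same letters the overlapping-seed 3p strands averaged 10.5% ± 0.792 and all other miRNAs 2.94% ± 0.290. Over the family, 44.8% of WT reads matched bases 2 to 8 and 24.7% had the full site with the A opposite base 1. The table had been filtered to genes with predicted sites of the miRNA, and the part of this filter in the shares was not tested.

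**Figure D4:**
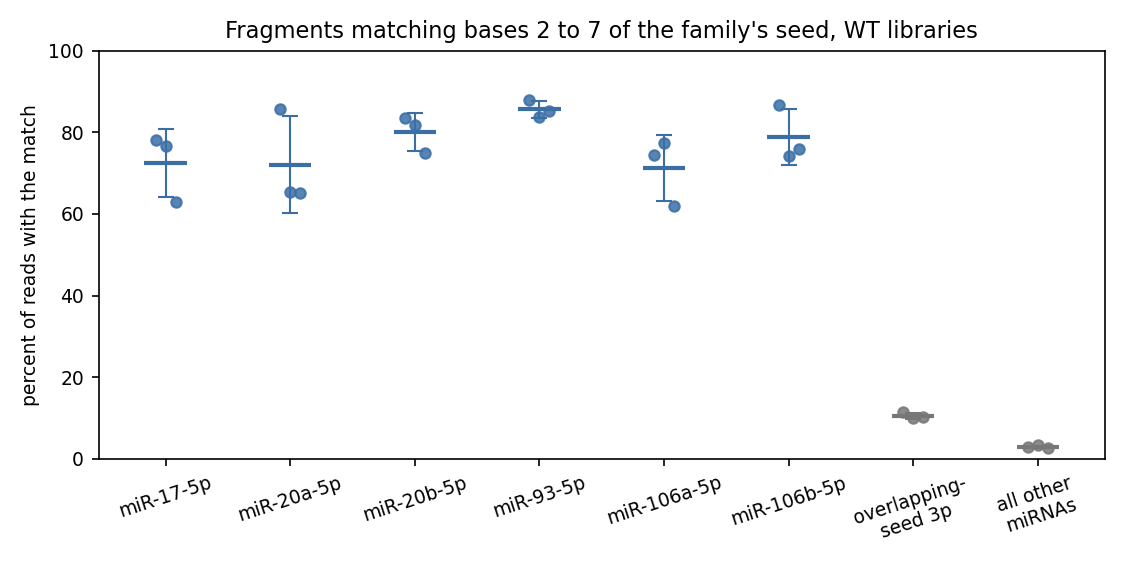
Percent of reads in WT libraries whose target fragment matches bases 2 to 7 of the family's seed, one point per library, with the mean and SD of 3 libraries; family members in blue, overlapping-seed 3p strands and all other miRNAs in grey. The member means lie between 71.3% and 85.7%, against 10.5% and 2.94%.

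The seed match of the kept reads did not differ detectably. miR-20b-5p had it in 82.4%, 83.6% and 76.5% of reads in HM libraries, a mean difference from WT of 0.71 percentage points (exact permutation p = 0.6). This difference took the other sign without WT library 3 (-1.92), without HM library 1 (-0.061) or without HM library 2 (-0.703). For miR-20a-5p, with 10, 15 and 12 reads, it was 60.0%, 40.0% and 75.0% in HM against 85.7%, 65.5% and 65.1% in WT (exact permutation p = 0.4).

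miR-20b-5p also stayed largely on genes of the family's WT range. Of its HM reads, 70.6%, 67.3% and 64.7% fell on genes that the family bound in a pair of WT libraries, against 81.9%, 68.6% and 70.2% for each WT library set against the other two (exact permutation p = 0.3). Of its 106 HM reads, 81 were on genes with a WT family read and 62 shared an 18-base run with one. Over all members this was 117 and 86 of 160 HM reads.

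Predicted duplex energies were compared between members because their sequences differ outside the seed. Over the whole set they were not lower for the member found in the hybrid. The energy of each WT fragment with its own member was higher, that is weaker, than its mean energy with the other members by 0.0756, 0.0050 and 0.171 kcal/mol in libraries 1 to 3, a mean of 0.0839 ± 0.0834 (SD, n = 3). The own member had the lowest energy of the 6, ties included, in 15.1% ± 0.426 of reads.

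The genes with the most family reads in WT were Fjx1 with 97, Epha4 with 44, Il17rd and Laptm4a with 32 each, Peg10 and Xiap with 31 each, Serinc1 with 21, Otud4 with 19, and C1orf63 and Setd2 with 18 each. Parts of their fragments are shown because they carry the sites at which most of these hybrids formed. Capitals mark the seed match, with the A opposite base 1 where it is present.
Fjx1: cagtttcatGCACTTTActtt
Epha4: ctcatccatGCACTTTAatt
Il17rd: gtctaagcatcgcCACTTTAgctgctga
Laptm4a: ttaactttGCACTTTctttg
Xiap: tgaagcctgcctaagtCACTTTActa
Serinc1: aaactctaagtCACTTTAatt
Otud4: aacaagctgtgtttatCACTTTAcag
Setd2: ctgcttcagatCACTTTActtt
Fjx1, Epha4 and Laptm4a match the whole seed, and the other genes shown match bases 2 to 7. The 17 bases around the site were found in 79 of 97 family reads on Fjx1, 30 of 31 on Xiap, 28 of 32 on Laptm4a, 18 of 18 on Setd2, 26 of 44 on Epha4, 16 of 32 on Il17rd, 12 of 21 on Serinc1 and 10 of 19 on Otud4.

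Most of these genes had few WT hybrids outside the family. They and the 81 genes below were chosen by their WT family reads, which favours a high family share. The family's mean share of all WT hybrids was 32.6%. Family reads were 96.0% of all hybrid reads on Fjx1, 95.7% on Epha4, 94.1% on Il17rd, 96.9% on Xiap, 95% on Otud4 and 100% on Setd2. They were 27.8% on Laptm4a and 45.6% on Peg10. Over the 81 genes with at least 5 family reads from at least 2 WT libraries, called family targets here, the median was 88.9%, and 27 of them had no other hybrid in WT.

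The family's hybrids on these genes nearly vanished in HM. Reads with the same seed were summed per gene and 235 sums with at least 10 reads were tested, of which 20.0% were called lower. Of the family's 710 genes 34 could be tested, and 33 of these were called lower. All 34 had fewer than 10 reads in HM, and 31 reached the minimum on WT reads alone, for which reason their number is not a result about them. Ccnd1, Tnrc6a and Zxda reached it only together with their HM reads. For genes and pairs that entered on WT reads alone, this selection also limits the adjusted p-values given below.

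Fjx1, a secreted relative of a Golgi kinase of the fly, had 35, 41 and 21 family reads in WT libraries against 1, 2 and 2 in the HM libraries. The rate per 3p hybrid was 67.1-fold lower (27.8 to 211, log2 fold change -5.90, SE 0.48, edgeR adjusted p = 9.13e-31). In WT miR-20b-5p supplied 38 of these reads and miR-93-5p 36, while the HM reads came from miR-20b-5p (4) and miR-20a-5p (1).

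Epha4, a receptor for ephrins in axon guidance, had 12, 22 and 10 family reads in WT against 2, 0 and 2 in HM (-5.02, SE 0.58, edgeR adjusted p = 1.98e-15). Il17rd, an inhibitor of FGF signalling, had 12, 10 and 10 against 1, 0 and 1 (-5.42, SE 0.70, adjusted p = 1.003e-12). Xiap, an inhibitor of caspases, had 13, 13 and 5 against 0, 2 and 0 (-5.39, SE 0.71, adjusted p = 2.27e-12). On each of these genes no HM library reached the rate of a WT library.

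Laptm4a, a membrane protein of lysosomes, had 13, 14 and 5 family reads in WT against none in the HM libraries, that is at least 36.9-fold lower (edgeR adjusted p = 7.84e-15). Setd2, a histone methyltransferase, had 7, 6 and 5 against none, at least 20.8-fold lower (edgeR adjusted p = 2.38e-08). Serinc1, a membrane protein named for serine incorporation, had 9, 3 and 9 against 1, 0 and 0 (adjusted p = 1.31e-08). Otud4, a deubiquitinase, had 7, 9 and 3 against 1, 0 and 0 (adjusted p = 1.24e-07). Peg10, described further on, had 5, 10 and 16 against 0, 1 and 0 (log2 fold change -6.13, SE 0.77, adjusted p = 2.47e-13). The remaining called genes had adjusted p from 1.85e-07 to 0.00386, the last for Tnrc6a.

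The smallest falls were on a pair of genes. C1orf63 had 8, 6 and 4 family reads in WT against 4, 4 and 0 in HM, 7.78-fold lower (3.22 to 20.7, edgeR adjusted p = 0.000136), a call that was lost with DESeq2 (adjusted p = 0.0589). Ccnd1, the cyclin of G1, had 3, 2 and 1 in WT against 1, 3 and 1 in HM, 4.15-fold lower (1.06 to 17.2), and was the gene not called, having reached the minimum through its HM reads (log2 fold change -1.94, SE 0.98, edgeR adjusted p = 0.162). All 5 HM reads on Ccnd1 came from miR-20b-5p and shared one site, shown with the whole seed match in capitals.
Ccnd1: ctgctaccgcacaacGCACTTTcttt

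**Figure D5:**
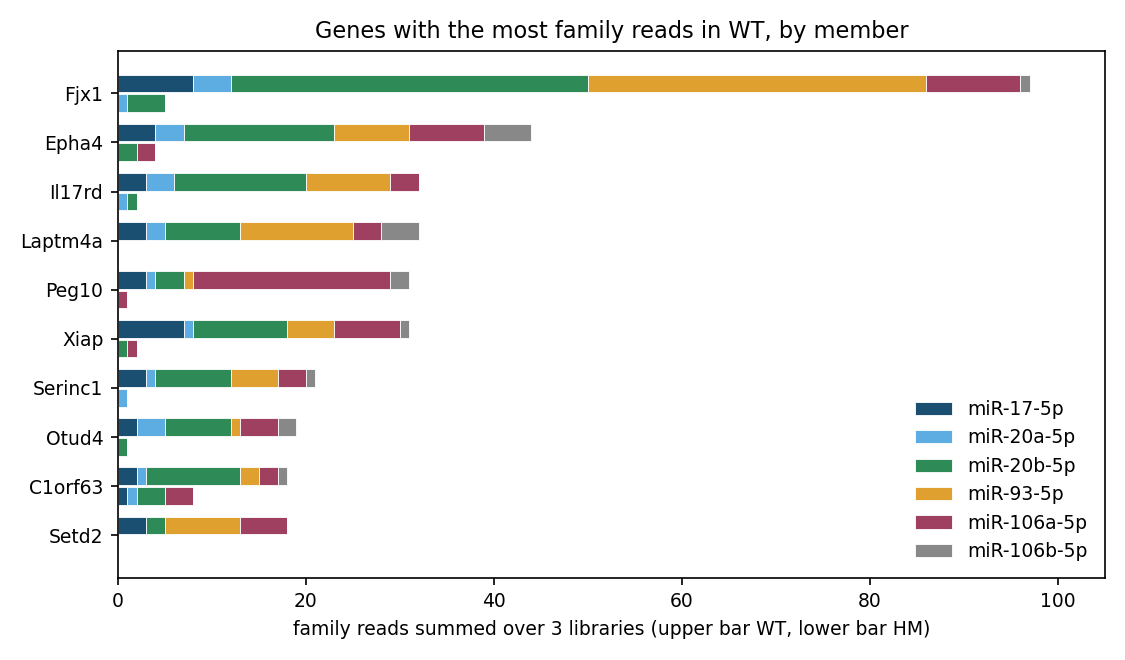
Family reads on the 10 genes with the most of them in WT, summed over 3 libraries, as horizontal bars split by member; the upper bar of a gene is WT and the lower bar HM. Fjx1 leads with 97 WT and 5 HM reads, Peg10 is mostly miR-106a-5p, and Laptm4a and Setd2 have no HM read.

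Single pairs of a member and a gene were sparser. Of 1269 family pairs 10 had at least 10 reads in all libraries and were tested among 140 pairs, of which 13.6% were called lower. All 10 were called lower. All had fewer than 10 HM reads, and 9 reached the minimum on WT reads alone, the exception being Epha4 with miR-106a-5p. The number of calls is therefore not a result about these pairs. They were Fjx1 with miR-93-5p, miR-20b-5p and miR-106a-5p, Epha4 with miR-20b-5p and miR-106a-5p, Peg10 with miR-106a-5p, Laptm4a with miR-93-5p, and Il17rd, Xiap and C1orf63 with miR-20b-5p. Fjx1 with miR-93-5p counted 12, 14 and 10 in WT against none in the HM libraries, that is at least 41.5-fold lower (edgeR adjusted p = 1.00e-18). Fjx1 with miR-20b-5p had 14, 16 and 8 against 1, 2 and 1, a ratio of 32.9 (11.8 to 127, edgeR adjusted p = 1.57e-15). The weakest call was Epha4 with miR-106a-5p, with 3, 5 and 0 against 1, 0 and 1 reads (edgeR adjusted p = 0.0157), lost under 6 of 10 alternatives, with adjusted p from 0.000859 to 0.31.

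Some genes leaned to one member. miR-106a-5p supplied 21 of the 31 WT family reads on Peg10, a paternally expressed gene derived from a retrotransposon, against 19.6% of all family reads. By library this was 2 of 5, 5 of 10 and 14 of 16, so that WT library 3 supplied most of it. Of these 31 reads 1 matched bases 2 to 7 of the seed, and 23 held the first stretch below, which has no such match. The 3p strands of miR-302 bound Peg10 most often at the second stretch, held by 86 of their 162 reads. Of the 162, 6 shared an 18-base run with a WT family read, 2 of them in WT, and 27 of the 31 family reads shared a run with one of these few.
Peg10 with the family: ttactgtattctctttatta
Peg10 with miR-302 3p strands: gtggacgagtgtacttattg
The predicted mean energy of the Peg10 fragments was -7.68 kcal/mol with miR-106a-5p, weaker than the -10.2 kcal/mol with miR-17-5p, which had 3 reads there. On Mars, a tRNA synthetase, miR-93-5p supplied 8 of 9 reads, and on Hist1h3g, a histone gene, 7 of 11. These genes were singled out after their values were seen, and no test was made.

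The next question was how many hybrids other miRNAs formed on the same genes. With the family's reads removed, 297 genes had at least 10 reads, of which 4.04% were called in either direction (edgeR adjusted p under 0.05), 3.37% lower and 0.673% higher. Of the 81 family targets 27 were tested, 2 were called lower and none higher. At an unadjusted p under 0.05 it was 2 lower and 3 higher. The median log2 fold change was 0.16 over the 27 and 0.25 over all 297, and with libraries scaled to 3p hybrids the median over all genes was -0.25.

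The called genes lost other 5p strands. Laptm4a had 21, 31 and 31 reads of other miRNAs in WT against 0, 1 and 0 in HM (log2 fold change -7.06, SE 0.61, edgeR adjusted p = 7.36e-27), and 80 of the 83 WT reads were from miR-291a-5p. Tnrc6a, a partner of AGO in silencing, had 9, 4 and 10 against 1, 3 and 3 (-2.92, SE 0.63, adjusted p = 0.000318), and 22 of its 23 WT reads were from 5p strands. Its family reads went from 8 in WT to 2 in HM (edgeR adjusted p = 0.00386), a call lost with libraries scaled to all hybrids (0.0534), with DESeq2 (0.197) and with a replicate block (0.0681).

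Peg10 had 7, 12 and 18 reads of other miRNAs in WT against 24, 87 and 48 in HM (log2 fold change 0.79, SE 0.33, edgeR adjusted p = 0.141). Without WT library 3 this became a call (1.32, adjusted p = 0.00303), the largest value of 15 alternatives. Over them the log2 fold change on Peg10 went down to 0.28, and the edgeR or DESeq2 adjusted p went up to 0.786. Of these reads 27 in WT and 135 in HM were from miR-302 3p strands. Otud4 had 1, 0 and 0 against 4, 13 and 3 (2.78, SE 1.13, adjusted p = 0.13), and Rlim, a ubiquitin ligase, 2, 3 and 6 against 7, 31 and 20 (1.08, SE 0.51, adjusted p = 0.243). These missed the threshold, and with such counts a change of moderate size was not detectable.

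At the level of all 3p hybrids the family targets were neither gained nor lost detectably. They took 8.19%, 7.42% and 10.1% of 3p reads in WT libraries against 7.63%, 8.19% and 8.31% in HM libraries, a mean difference of -0.53 percentage points (exact permutation p = 0.9), and without WT library 3 of 0.42. Of the overlapping-seed 3p reads they took 9.93%, 7.82% and 13.2% in WT against 11.1%, 11.2% and 11.2% in HM libraries, a mean difference of 0.84 (exact permutation p = 0.7). Without WT library 3 it was 2.02, with every HM library above both WT libraries (exact permutation p = 0.1, the smallest that 2 against 3 libraries can give). With all libraries, both differences were smaller than the spread of the WT libraries. In reads, the family targets had 121 hybrids of overlapping-seed strands in WT, on 27 genes, and 429 in HM, on 35 genes, in libraries of different depth. Of the 81 genes, 50 had no family read in HM and 17 had no hybrid of any miRNA there. Of all 670 genes with a family read in WT, 83 had one in HM. Of the 3200 genes of the series, 1953 had some hybrid in WT and 2490 in HM. The 3200 include genes seen in HM alone, so they are no background rate for genes chosen by WT reads.

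Gene lists chosen from the known biology of the family gave sparse hits. Of 25 reported targets 18 had some hybrid in the table and 12 a family read in WT, among them Pkd2 with 7 reads, Ccnd1 and Mylip with 6 each, Bmpr2 with 5, App with 4 and E2f1 with 3. Together the 12 had 45 family reads in WT and the list 8 in HM. Of this list Ccnd1 alone could be tested with the family, and it was not called.

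Among 30 genes of TGF-beta, activin and BMP signalling 7 had WT family reads, 16 in all, with 5 each on the receptor Bmpr2 and the SMAD repressor Skil, and none had a family read in HM. Over all genes the family had 1914 reads in WT and 160 in HM, so few were to be had on such a list. Among 30 genes of the G1 to S transition 7 had 26 WT reads. Ccne2, a cyclin E, had 3, 3 and 4 against none in HM, at least 11.5-fold lower (edgeR adjusted p = 1.44e-05), and entered on WT reads alone. Ccnd1 was not called. E2f1 and Btg3 had 3 reads each.

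Of 20 apoptosis genes 4 had 42 WT family reads, among them 31 on Xiap, which was called lower, and 3 on Mcl1. Of 16 ephrin and axon guidance genes 5 had 50 WT reads, 44 of them on Epha4, which was called lower, and 3 on Sema4b. Without the family's reads 6, 5, 4, 4 and 0 genes of the 5 lists could be tested, and none was called in either direction. Their median log2 fold changes, -0.08, -0.18, -0.47 and 0.32 for the first 4 lists, compare with 0.25 over all genes.

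The mRNA levels that the study measured in these lines were not analysed here, so that less of a target and less binding of it cannot be told apart, and the part of mRNA level in these differences was not tested.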

How the data were processed

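AGO2 CLASH hybrids of P19 cells were analysed from 3 WT and 3 HM libraries, grouped by their titles. The deposited table lists the distinct hybrid sequences of every library with an unscaled read count. The authors named the miRNA with QuagmiR, aligned the rest with Bowtie2 to 3′ UTRs of mouse coding genes and kept pairs predicted by TargetScan 8.0; other versions, the build and treatment of PCR duplicates are not given in the sources used here. Fragments outside 3′ UTRs are therefore not counted, and intervals cover counting error only.

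Reads were summed per library for miRNAs, miRNA-gene pairs, seed groups and, without the family, genes. Features with at least 10 reads entered edgeR 4.0.16 under R 4.3.3 (glmQLFit and glmQLFTest, Benjamini-Hochberg threshold 0.05). Library sizes were 3p totals, or all reads outside the family for genes. The SE of a log2 fold change was derived from the test, as its absolute value divided by the square root of the F statistic. Shares were compared by two-sided exact permutation tests (scipy 1.17.1), given as mean ± SD. P-values measure the spread between cultures of 1 WT line and 1 HM clone. Intervals of ratios are 95% exact (Clopper-Pearson, scipy 1.17.1). A fold against no read used 3 reads over the HM libraries. Duplex energies came from ViennaRNA 2.7.2. The edgeR fits were run on simulated data, where the pair table gave false calls beside recovered ones; the condition for passing was then loosened and the fit kept. Names in date form were kept as deposited.

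The text names all members, the 10 genes with most WT family reads, called family pairs, called family targets in the table without the family, and list genes with at least 3 WT family reads. Members, lists and rules were chosen with earlier results of these data known.

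Libraries 1 and 2 of WT did not differ over miRNAs beyond sampling noise (chi-square p = 0.575), while the other WT pairs did (p = 0.00263 and 1.06e-05). They shared 1.79% of the sequences of the smaller library, against 1.28% and 1.85% in those pairs, and were kept apart. No HM pair differed (p from 0.114 to 0.703). Same-numbered libraries did not deviate together (r = 0.0944, -0.0642 and 0.0667 over 94 miRNAs), so replicate numbers were not taken as pairs. Alternatives were other scalings, TMM, DESeq2 1.42.0, read minimums, distinct sequences counted once, a replicate block and each library left out. The values of some genes are not reported here.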

Additional observations from a re-analysis of the deposited data

How the results depend on the processing

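All 6 members stayed called lower in each of 90 refits, the largest adjusted p being 1.70e-05. Of 531 refitted values for 39 named miRNAs, pairs and genes, none changed direction, 14 lost a call and 1 gained one (other miRNAs on Peg10). The lost calls were 6 for miR-106a-5p with Epha4, 3 for miR-20b-5p with C1orf63, 3 for the family with Tnrc6a, and 1 each for miR-20b-5p with Xiap and the family with C1orf63. The family's share of 5p hybrids reversed without miR-466i-5p (20.1 percentage points higher in HM). The 3p share on family targets reversed with targets of at least 10 reads (0.035), and the overlapping-seed share with targets of at least 2 reads (-0.325). The seed site share of miR-20b-5p reversed with HM libraries 1 and 2 counted as 1 (-0.382), an alternative chosen after seeing the data, as was the same for WT. Leaving out 1 library gave -0.691 to 0.42 for the 3p share, -1.92 to 2.88 for the seed site share and 0.484 to 2.02 for the overlapping-seed share, the last value without WT library 3. Family pairs called lower numbered 22 with no read minimum and 2 with at least 30 reads, and 5 to 9 with 1 library left out; both without WT library 1 and without WT library 2 it was 5 of 5 tested. Family targets called lower numbered 56 with no minimum and 6 with at least 30 reads, and 15 to 33 with 1 library left out, 19 of 19 tested without WT library 1 and 15 of 15 without WT library 2. Fewer features reach the minimum in such fits. Called family target genes in the table without the family were 1 of 9 with a target minimum of 10. With a replicate block 6 members, 8 pairs, 32 family targets and 2 genes were called. An exact sign-flip permutation over 3 pairs cannot go below p = 0.25. Joint bases gave 42.02 to 57.02 percentage points more T in HM for miR-20b-5p and 35.6 to 46.3 for miR-20a-5p with 1 library left out, and 32.8 and 30.7 with incomplete miRNA pieces too. Counts of 0 to 5 HM reads limit single genes.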
